A study of Mus musculus with 6 samples.

Results

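The genes described here are the actin paralogs Acta1, Acta2, Actb, Actc1, Actg1 and Actg2 and the smooth muscle genes Tagln, Myl9, Cnn1 and Myh11, measured in rhombomere 1, the most anterior hindbrain segment, of mouse embryos at E12.5. The 10 names were chosen from a measured value: 1 Acta2 probe, ILMN_2693895, was higher in Gata2 mutants than in controls, and its family and its usual companions in smooth muscle were then listed by name. Every probe whose platform annotation carries one of these symbols was taken, which gave 21 probes of 9 genes among 19054 genes with a named probe. No probe was named for Actg1, which was not analysed here beyond its promoter. Because the Acta2 rise chose the list, it is given as a description without a test. The other probes entered by name and not by their own values, but they are read in the same contrast.

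The mutants were En1-cre, Gata2 flox/flox embryos and the controls, titled wildtype, were En1-cre, Gata2 flox/+ embryos of the same kind of cross, all of the ICR (CD-1) strain and all carrying the recombinase, so the groups differ by having 2 or 1 floxed alleles. Gata2 is a transcription factor of early neuronal precursors, and deletion is limited to cells in which En1-cre has acted. Each group held 3 pools of 6 dissected pieces, 1 pool to an Illumina Mouse WG-6 array, on which RNA is read as the brightness of beads that carry gene probes. In such whole tissue, fewer cells of a type and less RNA per cell cannot be told apart. The arrays are called mutant 1R, 2R and 3R and control 5R, 6R and 7R after their columns, numbers that separate the groups completely, so any effect of their order and the genotype cannot be told apart.

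Actins are the subunits of the thin filaments of the cell. Actb and Actg1 encode the cytoplasmic actins that nearly every cell makes, Acta1 and Actc1 those of skeletal and heart muscle, and Acta2 and Actg2 those of vascular and visceral smooth muscle. The proteins are almost identical and the genes are told apart mainly by where they are transcribed. In vessels of the developing brain Acta2 is known from mural cells, the smooth muscle cells and pericytes around the endothelium. Muscle actin genes and most smooth muscle contractile genes are driven by serum response factor, which binds a short element called the CArG box.

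The stretches before the gene starts are shown because this element is the feature that the muscle actins are known to share. A CArG box was read as CC and GG around a core of 6 letters that are each A or T, on both strands at once since the pattern is its own reverse complement. A second reading allowed 1 C or G in the core. RefSeq sequence of 250 bases before to 50 after the start (GRCm38.p6) matched 6 of the 10 genes, Acta1, Acta2, Actc1, Actg1, Cnn1 and Myl9; Actb, Actg2, Tagln and Myh11 are named only. Capitals mark the boxes of either kind. The first line is the 250 bases before the Acta2 start (chr19:34255374-34255623, minus strand). The others are 60 bases around the exact box of Acta1 (chr8:123894814-123894873, minus strand), Actc1 (chr2:114052888-114052947, minus strand), Actg1 (chr11:120348551-120348610, minus strand) and Myl9 (chr2:156775278-156775337, plus strand).
Acta2: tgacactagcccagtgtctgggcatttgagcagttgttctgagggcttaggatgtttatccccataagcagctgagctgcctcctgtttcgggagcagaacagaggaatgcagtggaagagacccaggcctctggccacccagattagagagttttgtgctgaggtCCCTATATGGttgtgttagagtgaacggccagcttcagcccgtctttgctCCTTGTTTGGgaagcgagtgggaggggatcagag
Acta1: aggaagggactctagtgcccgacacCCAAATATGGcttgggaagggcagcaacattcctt
Actc1: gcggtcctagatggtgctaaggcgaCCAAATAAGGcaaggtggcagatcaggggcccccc
Actg1: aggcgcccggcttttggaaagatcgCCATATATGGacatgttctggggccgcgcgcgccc
Myl9: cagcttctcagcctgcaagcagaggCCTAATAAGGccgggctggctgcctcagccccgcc

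An exact CArG box stood in 4 of the 6 windows, against 1.63% of all 32851 windows in the table. Acta2 had no exact box: it held a pair of boxes with 1 C or G in the core, which began 84 and 34 bases before the start. With that letter allowed, 5 of the 6 windows held a box, all but Cnn1, against 9.98% of all windows. Actc1 carried the same 10 letters as the more distant Acta2 box, 175 bases before its start. The GATA motif, searched as GATA with A or T before it and A or G after it, on both strands, was in 0 of the 6 windows and in 29.8% of all. Most of these genes belong to families already known for the CArG box, so its share among them is no test. A match is a description of the sequence, and the lack of one says only that these letters are not in this window.

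**Figure D1:**
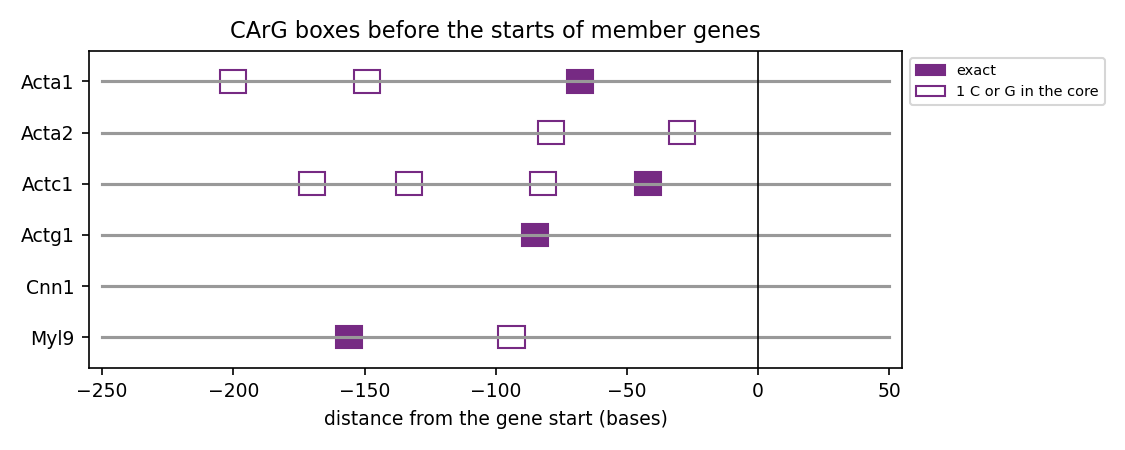
The position of each CArG box (x axis, bases from the gene start at 0) in the windows of the 6 member genes that have one. Filled blocks are exact boxes and open blocks have 1 C or G in the core; Acta2 has only open blocks and Cnn1 has none.

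The targeted gene and the arrays were read before the members. The 1 probe named for Gata2 averaged 10.89 ± 0.17 in mutants and 10.53 ± 0.16 in controls on the normalized log2 scale (SD, n = 3 each), a difference of 0.36 with an adjusted p of 0.418 (limma, Benjamini-Hochberg), and the sources used here do not place it inside or outside the floxed part, so it checks no label. Between 42.8% and 45.1% of the 45276 probes were above background on an array (detection p-value under 0.05). After background correction the lowest signal above background lay between 4.90 and 5.0 on the log2 scale, depending on the array. Mutant array 1R stood apart: its weight in limma's array weighting was 0.589, against 0.941 to 1.24 for the other 5 arrays. For these and all other listed genes outside the members, 1 probe of each gene was read, so its other probes are not covered. En1 and En2, homeobox genes of the midbrain and rhombomere 1, were above background on all 6 arrays, as were Gbx2 and Fgf8 of the same region, while Pax2 and Pax5 were on none. Of genes of neighbouring segments, Otx2, a forebrain and midbrain factor, was above background on all 6 arrays and Hoxb1, of a more posterior segment, on none. The posterior genes Hoxa2 and Hoxb2 were above background on 2 and 1 of 3 mutant arrays and on 1 and 3 of 3 control arrays.

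Of the 21 member probes, 8 were above background on at least 3 of 6 arrays and entered the fit, and they came from 4 genes, Acta1, Acta2, Actb and Myl9. Another 11 probes were above background on no array and 2 on a single array. A probe that enters only through the group in which it is bright, as ILMN_2693895 does, had to differ between the groups. All values below, unless called raw, are background-corrected normalized log2 intensities, differences are mutant minus control, and levels of different probes are not set against each other.

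**Figure D2:**
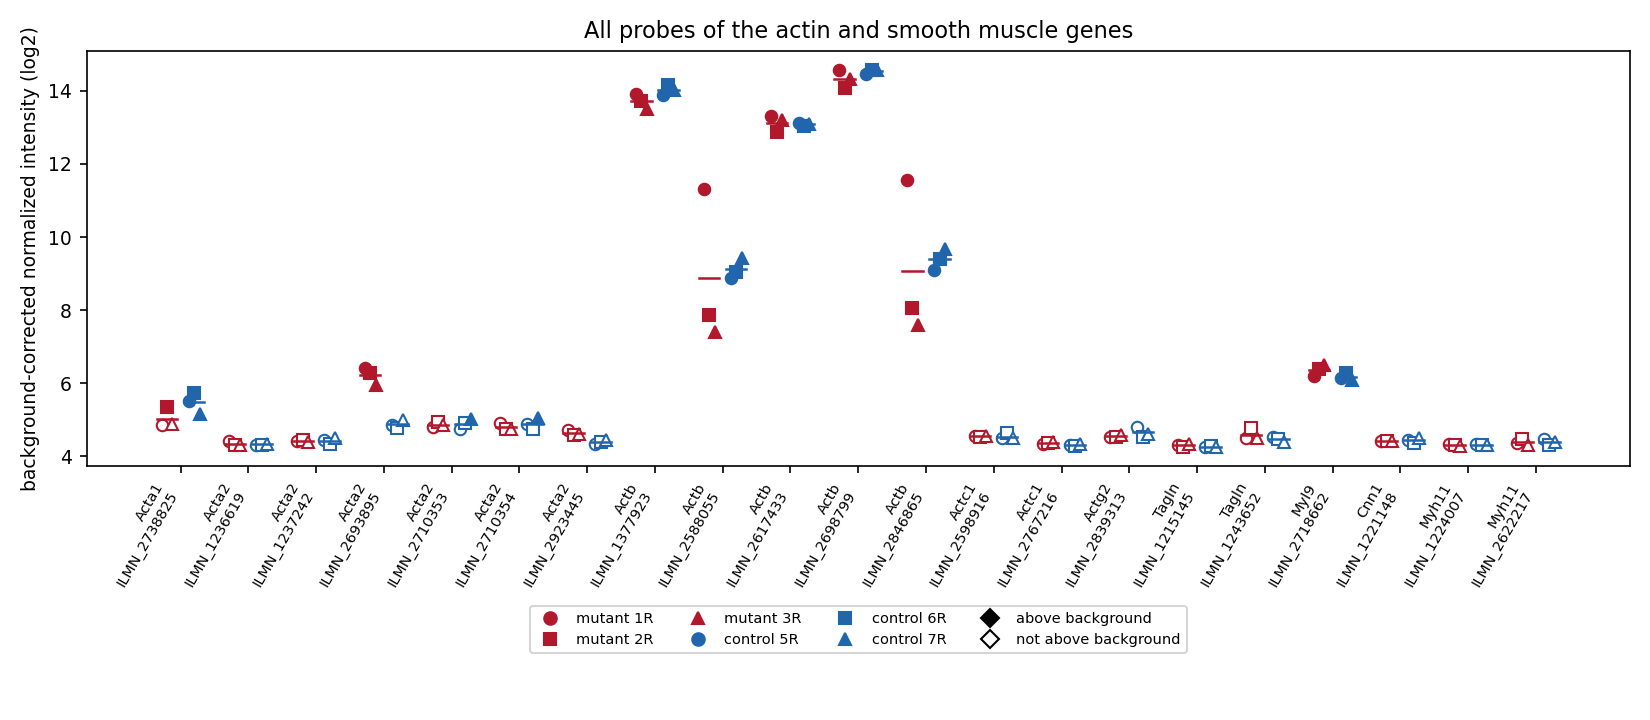
Log2 intensity (y axis) of all 21 probes (x axis, gene and probe) on each array, mutants in red to the left of controls in blue, with a line at each group's mean; filled symbols are readings above background. All Actb and Myl9 readings are filled, Acta2 ILMN_2693895 is filled in mutants and open in controls, and most other readings are open.

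Acta2, the actin of vascular smooth muscle, has 6 probes here. Probe ILMN_2693895 read a raw intensity of 139.8, 130.7 and 106.8 in the mutant pools, against 78.9, 76.3 and 77.5 in the control pools. The groups did not overlap, and the spread lay within the mutants, at 17.1 (SD) against 1.33 in controls. All 3 mutant readings were above background and all 3 control readings were not. The control readings missed the cutoff of 0.05 narrowly, with detection p-values of 0.0716, 0.0994 and 0.0524 on 5R, 6R and 7R. On the log2 scale the probe read 6.42, 6.28 and 5.95 in mutants, against 4.85, 4.78 and 5.0 in controls. The mutant mean of 6.21 ± 0.24 (SD, n = 3) was at least 2.35-fold above controls, where each control array counts at its dimmest detected signal if the probe itself was dimmer. This bound rests on the background correction and leaves out sampling error. The measured means differed by 1.34. Without background correction, where background is counted as signal, the ratio was 1.59. Without mutant array 1R the difference was 1.23.

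The other 5 Acta2 probes gave almost no reading above background: 2 of 30 readings, both on control array 7R, and 0 of 15 in mutants. Of the 6 probes, 5 are annotated to 1 and the same RefSeq transcript and 1, ILMN_1236619, to another record. Probe ILMN_2923445 read 75.8, 70.8 and 65.95 raw in mutants, against 60.8, 62.5 and 62.8 in controls. Its groups did not overlap either, with mutants higher, but all 6 readings were within background, with detection p-values of 0.153 to 0.220 in mutants and 0.446 to 0.778 in controls. Its log2 difference was 0.23 (95% interval 0.09 to 0.37). With all probes fitted and no detection filter its unadjusted p was 0.00284 and its adjusted p 0.494 (limma, Benjamini-Hochberg); in that fit 0.0685% of the 45276 probes were called.

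The remaining Acta2 probes showed no separation of the groups. ILMN_2710354 read 81.7, 76.0 and 70.1 raw in mutants, against 80.1, 75.2 and 78.6 in controls, and the log2 values differed by -0.09 (95% interval -0.37 to 0.20). ILMN_2710353 read 78.1, 80.8 and 72.8 in mutants, against 76.1, 79.5 and 77.7 in controls, and differed by -0.02 (95% interval -0.31 to 0.26). ILMN_1237242 and ILMN_1236619 differed by -0.02 (95% interval -0.13 to 0.09) and 0.02 (95% interval -0.06 to 0.10). These intervals come from the unfiltered fit. They do not bound the change of a transcript that a probe does not pick up. The sources used here do not say where on the transcript the probes lie.

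**Figure D3:**
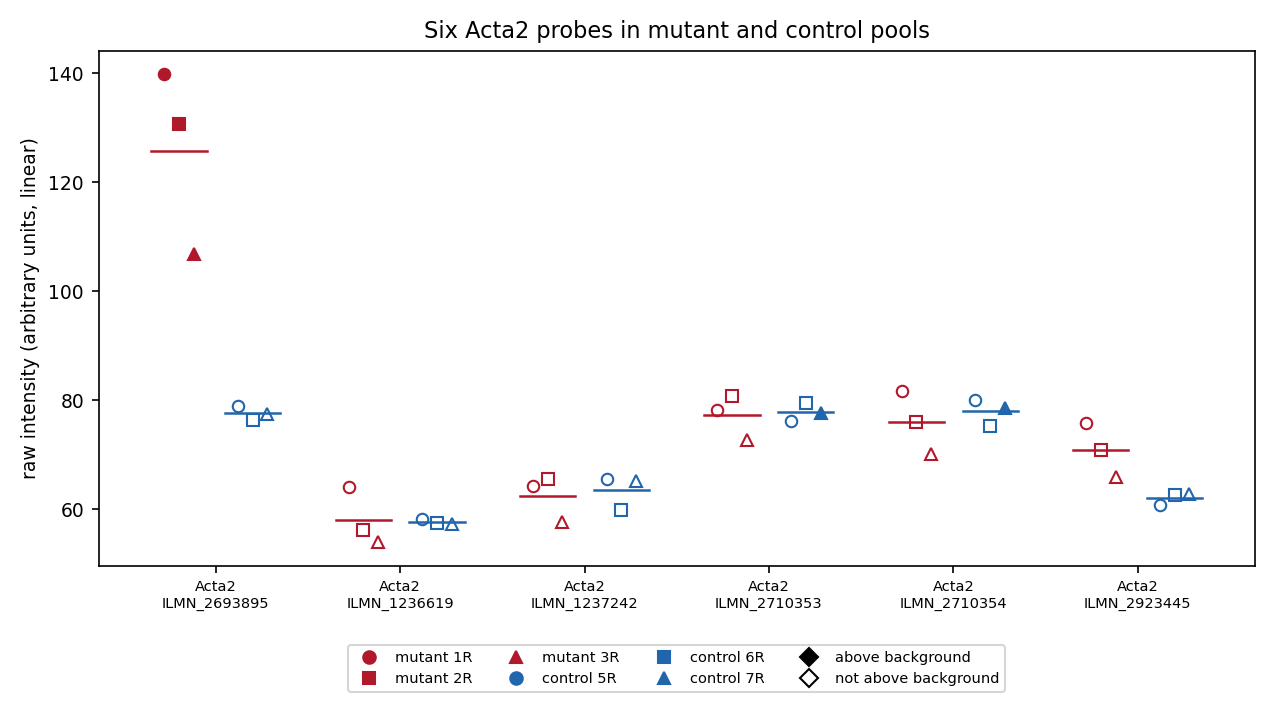
Raw intensity (y axis, linear, arbitrary units) of the 6 Acta2 probes (x axis) in mutant pools (red, left) and control pools (blue, right), with a line at each mean; the axis does not start at 0, and filled symbols are above background. ILMN_2693895 lies between 106.8 and 139.8 in mutants and between 76.3 and 78.9 in controls, and every reading of the other probes is at most 81.7.

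Of the other muscle actins Acta1 alone was measurable. Acta1, the skeletal muscle actin, was lower in mutants by its values, with log2 readings of 4.85, 5.36 and 4.89 in mutants, against 5.51, 5.74 and 5.17 in controls. The groups overlapped, and 1 of 3 mutant readings and all 3 control readings were above background. The control readings alone met the detection filter, which favours a lower value in mutants. Under the stricter detection filter tried as an alternative the probe did not enter the fit. The difference was -0.44 ± 0.19 (SE), with an unadjusted p of 0.0368 and an adjusted p of 0.533 (limma, Benjamini-Hochberg). Actc1, the heart muscle actin, had 2 probes that were above background on no array. ILMN_2767216 read 4.35, 4.37 and 4.38 in mutants, against 4.32, 4.29 and 4.34 in controls. Its groups did not overlap, at a difference of 0.05 within background. Actg2, the visceral smooth muscle actin, whose gene lies on chromosome 6 within 10 Mb of Gata2, read 4.53 to 4.59 in mutants and 4.53 to 4.81 in controls, above background on none, with a difference of -0.10.

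Actb, the cytoplasmic beta-actin, was above background with all 5 probes on all 6 arrays, and its probes fell into distinct patterns. Probes ILMN_2698799, ILMN_2617433 and ILMN_1377923 varied less among mutants than the other pair, with SDs of 0.24, 0.24 and 0.20, above the median of 0.155 over all probes in the fit. ILMN_2698799 read 14.56, 14.08 and 14.32 in mutants, against 14.46, 14.58 and 14.57 in controls, a difference of -0.22 ± 0.11 (SE; adjusted p = 0.617, limma). ILMN_2617433 read 13.31, 12.87 and 13.21 in mutants, against 13.12, 13.05 and 13.08 in controls, a difference of 0.05 ± 0.11 (SE; adjusted p = 0.939, limma). ILMN_1377923 had the smallest p of the Actb probes, with 13.91, 13.72 and 13.50 in mutants, against 13.89, 14.15 and 14.01 in controls. It differed by -0.31 ± 0.11 (SE; unadjusted p = 0.0171, adjusted p = 0.453, limma), and its groups overlapped.

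The other Actb probes, ILMN_2846865 and ILMN_2588055, varied more between mutant pools than between the groups. ILMN_2846865 read 11.56, 8.07 and 7.59 in mutants, against 9.10, 9.40 and 9.67 in controls. In raw intensity that was 3109, 336.0 and 238.4 in mutants, against 595.4, 738.3 and 766.9 in controls. Mutant 1R thus lay above every control and mutants 2R and 3R below every control, and the 1R level was 15.7-fold that of 3R after background correction and normalization. ILMN_2588055 followed the same course, with 11.32, 7.88 and 7.40 in mutants, against 8.89, 9.04 and 9.42 in controls, and on each array it lay within 0.18 to 0.36 of ILMN_2846865.

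Among the 19936 probes in the fit, these probes had the largest and the next largest excess of mutant 1R over the higher of the other mutants, at 3.49 for ILMN_2846865 and 3.43 for ILMN_2588055. Their SD among mutants was 2.17 and 2.13, against 0.28 and 0.27 among controls, and against a median of 0.155 among mutants and 0.135 among controls over all probes in the fit. With all arrays their differences were -0.32 ± 0.71 and -0.25 ± 0.70 (SE; adjusted p = 0.930 and 0.949, limma). Without mutant array 1R they differed by -1.56 and -1.47 and both passed the threshold (adjusted p = 0.00111 and 0.00190, limma); without 1R 0.517% of all probes in the fit were called. Without mutant 2R or 3R the sign of both turned. Whether the pool, its RNA or the sequence under these probes sets them apart was not tested, and signal from other actin transcripts or from processed copies of Actb cannot be told apart from its own.

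**Figure D4:**
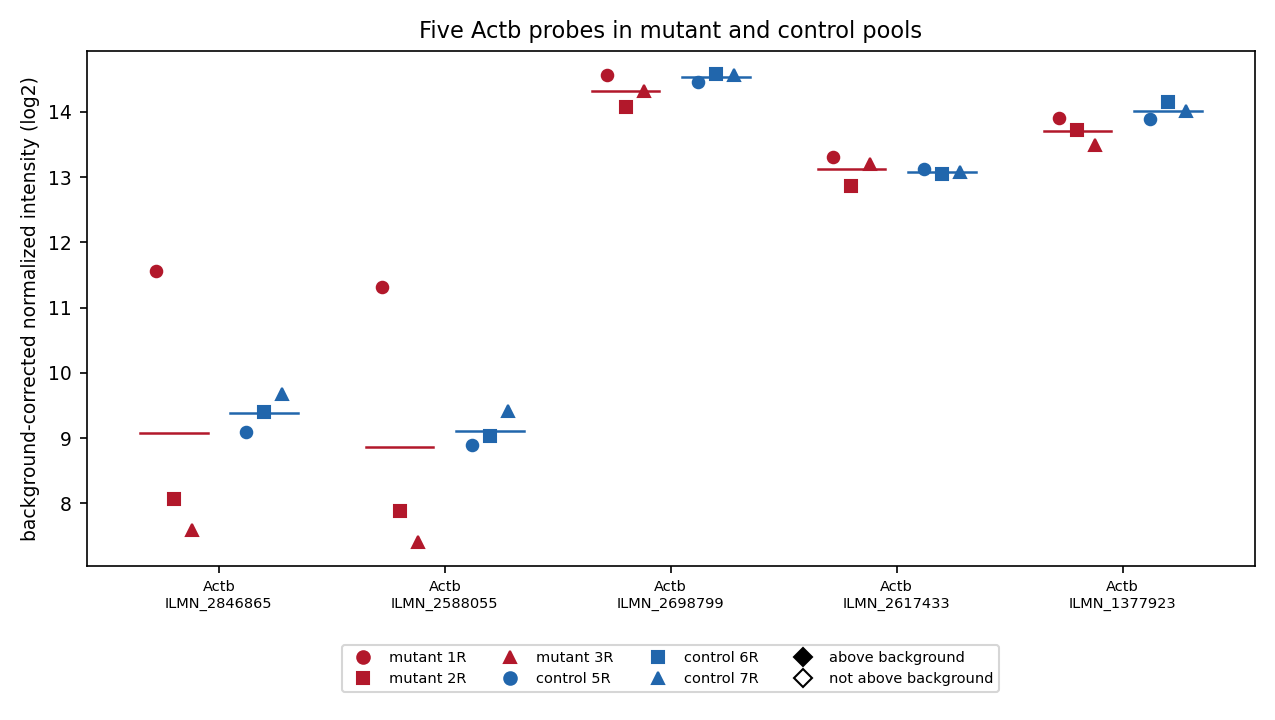
Log2 intensity (y axis) of the 5 Actb probes (x axis) in mutant pools (red, left) and control pools (blue, right), with a line at each mean. In ILMN_2846865 and ILMN_2588055 mutant 1R stands above 11 and mutants 2R and 3R near or below 8, around controls at 8.89 to 9.67, while the other 3 probes stay between 12.87 and 14.58 on every array.

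Of the 4 smooth muscle genes outside the actins, Myl9 alone was above background. Myl9, a regulatory light chain of smooth muscle and non-muscle myosin, read 6.21, 6.38 and 6.49 in mutants, against 6.13, 6.27 and 6.08 in controls. The groups overlapped, and the difference was 0.20 ± 0.14 (SE; 95% interval -0.10 to 0.50, adjusted p = 0.722, limma). Tagln (transgelin, an actin-binding protein of smooth muscle), Cnn1 (calponin, which binds actin and restrains myosin) and Myh11 (the smooth muscle myosin heavy chain) were above background on none of the 6 arrays with any of their 5 probes. Tagln ILMN_1243652 read 4.50, 4.78 and 4.50 in mutants, against 4.54, 4.48 and 4.39 in controls, a difference of 0.13, the largest of these. The single Cnn1 probe read 4.41, 4.42 and 4.41 in mutants, against 4.45, 4.37 and 4.50 in controls. The Myh11 probes differed by -0.01 and -0.00. Over the 8 probes of the 5 genes with no reading above background, raw intensity stayed between 50.5 and 77.8 and the log2 differences between -0.10 and 0.13. A change within background was not detectable here, which is not the same as none.

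Counted together, 0 of the 7 other member probes in the fit passed the threshold (limma, adjusted p under 0.05), where 0.145% of all 19936 probes did. At an unadjusted p under 0.05 there were 2, the Acta1 probe and Actb ILMN_1377923, both lower in mutants, where 8.84% of all probes reached it. For the Acta1 probe the control readings alone met the detection filter. The adjusted p-values of the 7 ran from 0.453 to 0.949. Over all 21 probes the median difference was -0.01, beside 0.00 over the whole table, and 9 were positive and 12 negative. Over the 8 probes in the fit it was -0.23 (3 positive, 5 negative), beside 0.01 over all probes in the fit. Of these 8 probes 5 are of Actb and 1 is the Acta2 probe that chose the list, so this median mostly describes 1 gene. In 3 of 21 probes the mutant and control readings did not overlap, all higher in mutants: both Acta2 probes named above and the Actc1 probe. Without ILMN_2693895, whose separation chose the list, that leaves 2 of 20, both within background, and over the whole table it held for 11.8% of probes.

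**Figure D5:**
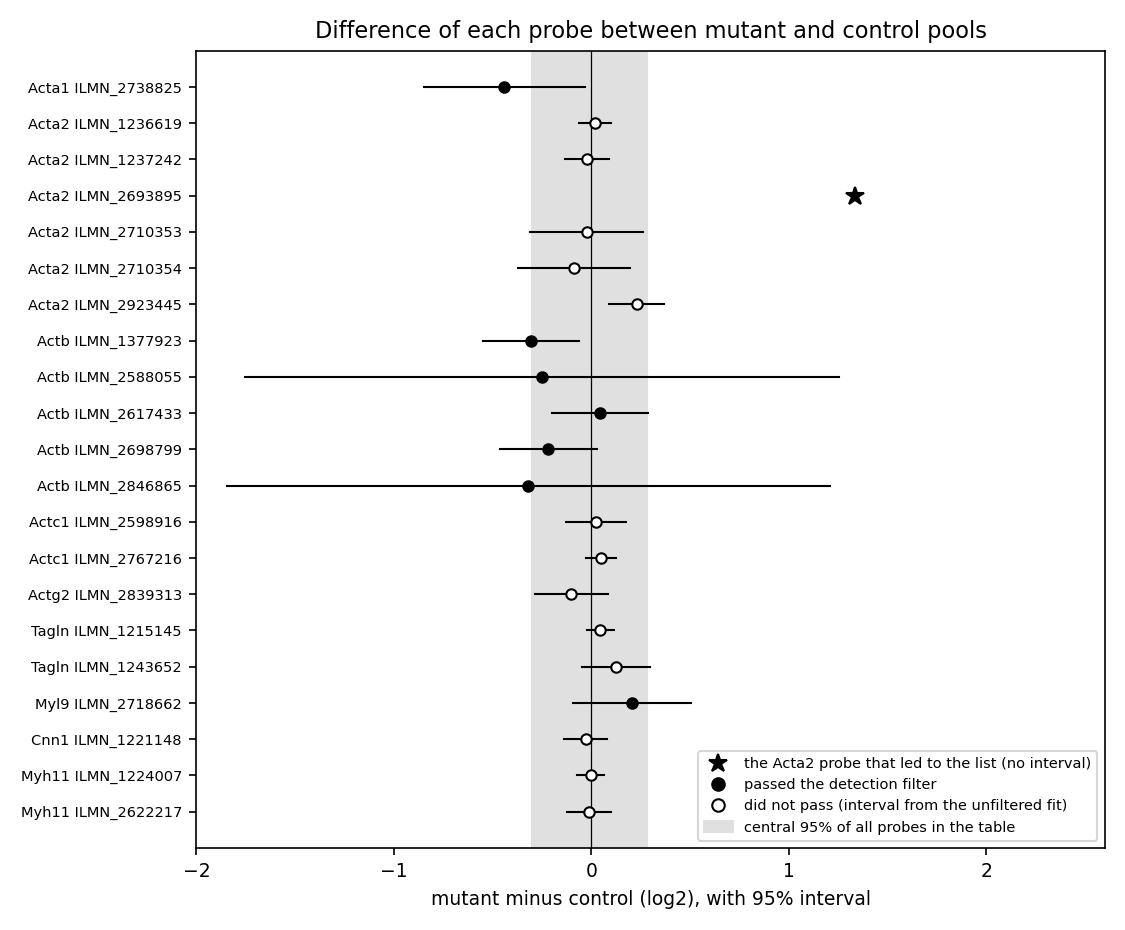
Difference of each of the 21 probes (y axis, rows) between mutants and controls (x axis, log2), with 95% intervals from limma; the band spans the central 95% of all 45276 probes, -0.30 to 0.28. The star is Acta2 ILMN_2693895 at 1.34, shown without an interval because its value chose the list; the intervals of the 2 variable Actb probes are the widest.

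The probes whose course over the 6 arrays was most like that of Acta2 ILMN_2693895 were found by the root mean square distance of log2 values after each probe's mean was subtracted. The nearest 5 named probes were those of Hps1 at 0.32, Pkib at 0.33, Tmem121 at 0.34, Metrn at 0.34 and Pkd2l1 at 0.36. All were higher in mutants by their means, which nearness to a probe chosen for its rise brings with it. Of the member probes Myl9 came nearest, at 0.62, ranked 2747 of 16785 named probes. The Acta1 probe, at 0.94, ranked 16534. This likeness is drawn from the same 6 arrays and the same contrast and is a description only.

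Serum response factor and genes that act with it were read next. Srf itself averaged 8.90 ± 0.32 in mutants and 9.0 ± 0.19 in controls (SD, n = 3 each), a difference of -0.10 (adjusted p = 0.896, limma). Myocd, its smooth muscle coactivator, was above background on 1 array of each group, with means of 4.90 in mutants and 4.82 in controls. Of 15 genes listed for this pathway 6 were in the fit, and 0 passed. Egr1, an immediate early target, averaged 5.48 ± 0.13 in mutants and 5.91 ± 0.12 in controls (SD, n = 3 each) without overlap, a difference of -0.43 (unadjusted p = 0.0114, adjusted p = 0.425, limma). The matricellular gene Ccn1 differed by 0.26 and the coactivator Mrtfb by -0.11 (adjusted p = 0.682 and 0.884, limma). The list's median was -0.07.

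Further smooth muscle genes, paralogs of the members and genes of actin filament turnover were read beside them. Of 12 further smooth muscle genes 8 were in the fit and 0 passed, with a median of 0.08. Smtn, smoothelin, averaged 7.44 ± 0.18 in mutants and 7.02 ± 0.12 in controls (SD, n = 3 each) without overlap, a difference of 0.41 (unadjusted p = 0.00953, adjusted p = 0.418, limma). Mylk, the myosin light chain kinase, differed by 0.25, and Csrp1, a LIM domain protein of smooth muscle, by 0.21 (adjusted p = 0.617 and 0.731, limma). Of the paralogs 9 of 13 were in the fit and 0 passed, with a median of 0.02, and examples were Tagln3, the neuronal transgelin, at 0.10, the myosin light chain Myl6 at 0.06 and Actr1a, an actin-related protein of dynactin, at -0.04. Of the turnover genes 11 of 14 were in the fit and 0 passed, with a median of -0.08: the actin-depolymerizing factor Dstn differed by -0.16, the profilin Pfn2 by -0.11 and the cofilin Cfl2 by 0.14. In these 4 lists 0 of 34 genes in the fit passed, where 0.171% of all 10524 genes did (brightest probe of each gene), and 2 of 34, Smtn and Egr1, had an unadjusted p under 0.05, or 5.88%, where 8.83% of all genes did.

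Markers of cell types that make muscle actins, and of other cells the tissue could hold, were set beside the Acta2 reading. Of 8 mural cell markers 6 were in the fit and 0 passed, and their summed normalized intensity was 1656 to 2086 in mutants and 1585 to 1776 in controls, with overlap. The list's median difference was 0.10 (4 positive, 2 negative). Kcnj8, a potassium channel subunit of pericytes, was lower by its values at -0.33 without overlap (adjusted p = 0.525, limma), and Rgs5 differed by -0.35. Vtn differed by 0.21, Notch3 by 0.14, Cspg4 by 0.11 and Abcc9 by 0.09, the last without overlap. Pdgfrb was above background on 2 of 3 mutant arrays and 0 of 3 control arrays and was higher by 0.24 without overlap (no test, outside the fit). Anpep was above background on no array.

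Striated muscle markers mostly gave no reading above background: of 8 with a named probe 6, among them Myod1, Myf5 and Ttn, were above background on no array. The other markers, Myog and Mylpf, summed to 117 to 133 in mutants and 107 to 116 in controls, without overlap, and neither passed (adjusted p = 0.690 and 0.864, limma). Of 8 mesenchyme and meninges markers 4, Col1a1, Col1a2, Col3a1 and Lum, were above background on no array, and the 3 in the fit summed to 215 to 233 in mutants and 219 to 227 in controls. Endothelial markers, 7 of 8 in the fit and 0 passed, summed to 1205 to 1449 in mutants and 1348 to 1493 in controls. Erythroid markers, 5 of 6 in the fit and 0 passed, summed to 52898 to 61065 in mutants and 49792 to 56224 in controls, with overlap, and all 5 differences were positive. The embryonic globins Hbb-bh1 and Hba-x were higher by their values at 0.53 and 0.41 without overlap (unadjusted p = 0.00199 and 0.00636, adjusted p = 0.293 and 0.380, limma), and Alas2, of heme synthesis, differed by 0.27 without overlap. The mean log2 value of the 5 was 12.07 to 12.37 in mutants and 11.95 to 12.03 in controls. Microglia markers, 4 of 5 in the fit and 0 passed, summed to 197 to 214 in mutants and 230 to 261 in controls, without overlap. Of these Csf1r, at -0.39, was above background on 1 of 3 mutant and 3 of 3 control arrays, so its controls alone met the filter. How often sums of other genes separate the groups was not tested. Neural progenitor markers, 5 of 5 in the fit and 0 passed, summed to 8358 to 9571 in mutants and 7012 to 8179 in controls, without overlap. Of their differences 4 were positive and 1 negative. Hes5, a Notch target, differed by 0.37 (unadjusted p = 0.00349, adjusted p = 0.332, limma), the smallest p of the list. Nes, Vim and Fabp7 differed by 0.23, 0.19 and 0.12 and Sox2 by -0.09, all with overlap. All 5 neuron markers had negative differences and 0 passed. They summed to 17365 to 17827 in mutants and 17402 to 20002 in controls, with overlap. Their mean log2 value was 10.24 to 10.32 in mutants and 10.35 to 10.37 in controls. Over the 10 marker lists, those of the region included, 0 of 44 genes in the fit passed, where 0.171% of all genes did, and 6 of 44, 4 higher and 2 lower, had an unadjusted p under 0.05, or 13.6%, where 8.83% of all genes did. Fgf8 of the region was among the higher, at 0.41 (unadjusted p = 0.0246, adjusted p = 0.498, limma). Gbx2 differed by 0.67, En1 by -0.25 and En2 by -0.18, all with overlap. What part these cell types had in the Acta2 reading was not tested.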

How the data were processed

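RNA of 6 pools of rhombomere 1 was read on Illumina arrays. Per the file headers, the authors' deposited table holds a linear, non-normalized intensity per probe and array. The same deposited table pairs each intensity with a detection p-value. GenomeStudio 1.0 is named in the submitters' processing notes, its role not stated. Its columns give a genotype and a number that no sample title has, so columns were tied to groups and not to single samples. A second table of intensity, normalized by the authors, served as an alternative.

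Background correction and normalization used neqc of limma 3.58.1, under R 4.3.3 (settings: normexp from detection p-values, offset 16, quantile, log2), which widens the folds of dim probes. The fit took the 19936 of 45276 probes, named or not, that 3 or more of the 6 arrays detected at p under 0.05. Mutant minus control was fitted across all of them (lmFit, eBayes with intensity trend), with Benjamini-Hochberg adjustment over probes and a threshold of 0.05. For lists, the brightest kept probe of a gene was used, or its brightest probe where none was kept. Gene symbols came from the platform annotation: 34881 probes had 1 symbol, 18 several and 10377 none; 4 listed symbols were matched through synonyms (Mkl1, Mkl2, Cyr61 and Ctgf, now Mrtfa, Mrtfb, Ccn1 and Ccn2). The pools are called biological replicates in the series' text.

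The members and lists were chosen with earlier results of these data known. Named were all member probes, Srf, Myocd, Gata2, the 3 genes of each pathway list with the smallest p (and any past the threshold), and the 5 probes nearest to the Acta2 probe; the single markers given of other cell types are examples picked with their values known. The alternatives tried were median scaling, an offset of 50, no background correction, the normalized table, no or a stricter detection filter, no trend, array weights, a replicate block, adjustment over genes, and leaving out each array. Depth has no counterpart on arrays; their number limits the precision.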

Additional observations from a re-analysis of the deposited data

How the results depend on the processing

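Over the 16 alternatives the difference of Acta2 ILMN_2693895 ran from 0.64 in the authors' normalized table to 1.46 without mutant array 3R. Its size on a dim probe depends on the background correction (0.67 without it, 0.77 with an offset of 50). All alternatives used the same arrays, whose groups do not overlap for this probe, so its sign was not put to a test. The 5 other Acta2 probes lay between -0.17 and 0.26 over all alternatives. No other member probe passed in 15 of the 16 alternatives, while leaving out single arrays gave counts of 0 to 2; the 2, without mutant 1R, were Actb ILMN_2846865 and ILMN_2588055. Their differences ran from -1.56 to 0.42 and from -1.47 to 0.48 when 1 array was left out, positive at 0.18 and 0.25 without mutant 2R and at the upper ends without mutant 3R. Actb ILMN_2617433 was -0.0071 with array weights and ranged from -0.049 without mutant 1R to 0.18 over the arrays left out. Probes without overlap between groups numbered 3 to 8 with 1 array left out (8 without mutant 1R, 7 without control 6R), when the share over the whole table was 20.8% to 24.1%. The cause of these changes was not tested. The count of all probes called was 103 without mutant 1R, 14 without control 5R, 17 without control 6R, 19 without control 7R or without an intensity trend, and 29 with all arrays. By the titles' replicate numbers, deviations of same-numbered pools of the authors' table correlated at -0.04, -0.09 and -0.30 over probes. For differently numbered pools the correlations ran from -0.10 to 0.19. Deviations from a group's mean are not independent, so these values cannot show whether the pools were paired. With the replicate block on that table Acta2 ILMN_2693895 differed by 0.64 and 17 probes were called in all.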
